A study of Mus musculus with 18 samples.

Results

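The cadherin genes described here are Cdh13 and 9 further genes of the family, Cdh1, Cdh2, Cdh3, Cdh4, Cdh8, Cdh11, Cdh18, Cdh22 and Cdh23. Taken with them were all CTCF peak intervals that have a summit inside one of these genes or within 10 kb of it on the mm10 build. Of 59372 intervals in the SKO list 92 met this rule, of 62238 in the TKO list 102, and of 71075 in the WT list 117. Cdh13 held 30 of them in SKO, 40 in TKO and 47 in WT. The set was chosen by the number of WT peaks that Cdh13 had lost in SKO in these same lists, and the other genes were added by family, so peak numbers and losses are given as a description, with no test.

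Cadherins are calcium-dependent adhesion molecules that join neighbouring cells through their extracellular repeats. Classical members pass the membrane and bind catenins inside the cell, which link them to actin, whereas Cdh13 encodes T-cadherin, which lacks that inner tail, is held to the membrane by a lipid anchor and binds the hormone adiponectin. CTCF is a zinc finger protein that sets loop anchors and insulators together with cohesin, and methylation of CpGs in its motif can hinder binding. TET enzymes oxidise methylated cytosine, while DNMT enzymes place the methyl group.

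CTCF was mapped by chromatin immunoprecipitation and sequencing (ChIP-seq) with an anti-CTCF antibody in mouse embryonic stem cells. SKO cells carry a sextuple knockout of Dnmt1, Dnmt3a, Dnmt3b, Tet1, Tet2 and Tet3, TKO cells a triple knockout of Tet1, Tet2 and Tet3, and WT cells neither. The labels list 3 ChIP and 3 input samples per genotype, name no clone or strain, and describe culture with LIF on irradiated mouse embryonic fibroblasts, whose chromatin may be present as well. Each peak list was made from pooled replicates, so no value below has a spread between replicates, no test between genotypes was possible, and intervals on shares cover counting error alone. The lists hold no RNA values, so neither the cell type nor the knockouts could be checked against markers, and differences between the genotypes cannot be told apart from other differences between the cell lines.

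A WT peak without an overlapping peak in a knockout list is called lost, and a knockout peak without a WT peak gained; both words describe the lists. The authors' fold is the enrichment of ChIP over local background at the summit, and their −log10 q ranks peaks within a list. The pileup is the number of ChIP fragments over the summit, solved here from the fold and the −log10 p. The genome-wide background was 1.37 fragments in SKO, 1.82 in TKO and 1.76 in WT, thus lowest in SKO. Read totals were not used here.

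Cdh13 lies on chromosome 8 from 118140017 to 119324929 and is 1185 kb long. The RefSeq gene table used for positions (GRCm38.p6) gives neither strand nor exons, so exonic and intronic peaks are not told apart here. In SKO it had lost 17 of its 47 WT peaks (36.2%, 95% Wilson interval 24.0% to 50.5%) and gained 0 of 30, which allows a share of up to 10% at 3 counts (the upper Wilson limit is 11.4%). Over the whole series 21.9% of WT peaks were lost in SKO and 6.59% of SKO peaks were gained. In TKO it had lost 8 of 47 (17.0%, 8.89% to 30.1%), beside 19.0% of all WT peaks, and gained 1 of 40 (2.50%), beside 7.49% of all TKO peaks. All 8 WT peaks missing from TKO were also missing from SKO, and the other 9 of the 17 were in TKO. With the lists cut to equal length by −log10 q, Cdh13 had lost 9 of 39 WT peaks in SKO (23.1%), beside 12.0% of all WT peaks. That share is below the interval given above for the full lists.

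**Figure D1:**
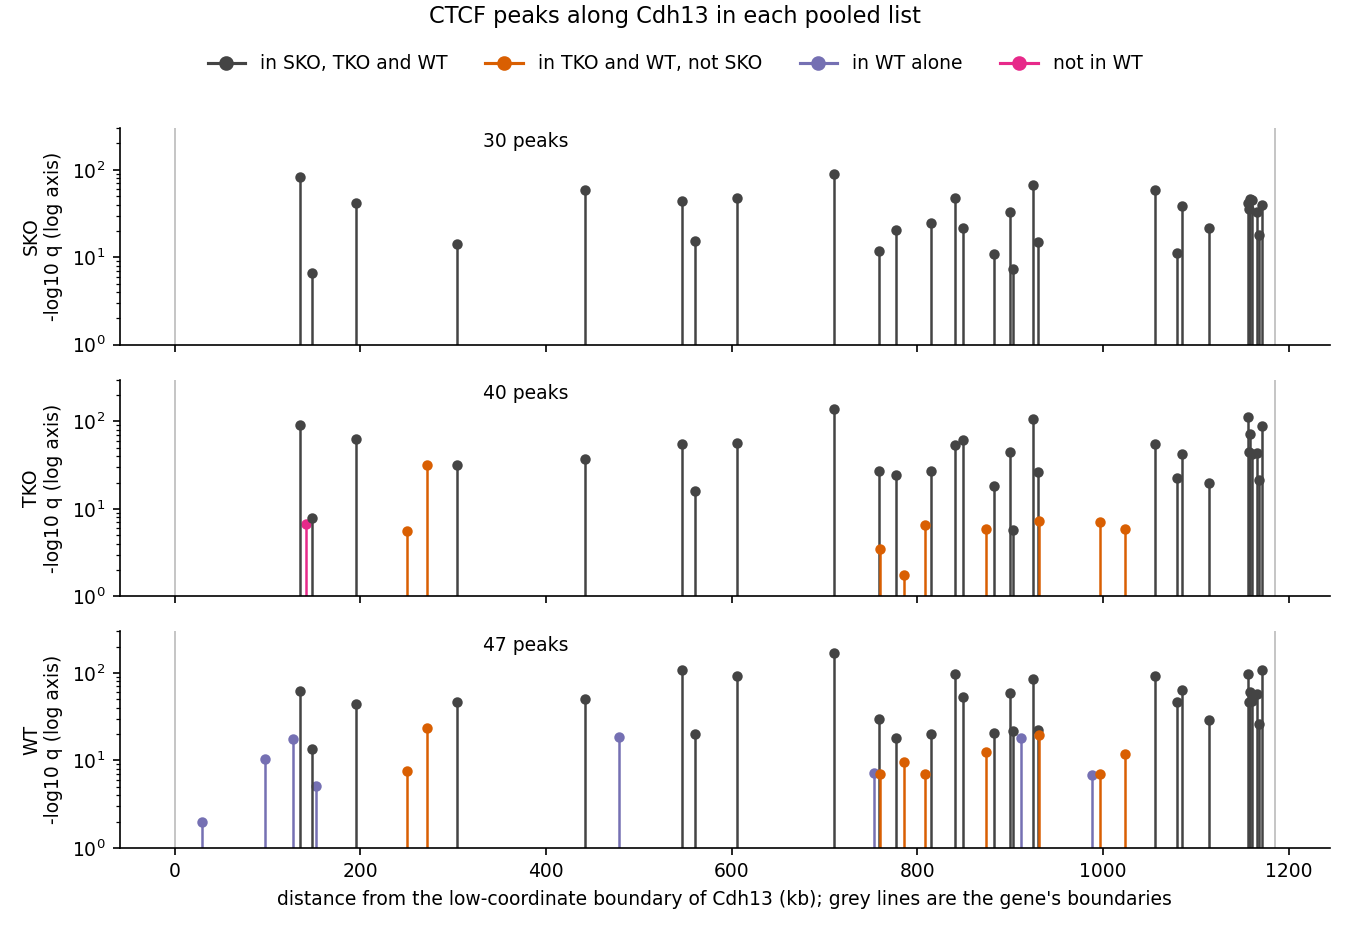
CTCF peaks along Cdh13 in the SKO (30 peaks), TKO (40) and WT (47) lists; the x axis is the distance of the summit from the low-coordinate boundary of the gene in kb and the y axis the authors' −log10 q within each list on a log axis. The last 11 WT peaks, from 1056 kb to 1172 kb, have a partner in both knockouts, and peaks of the other colours lie between 29.1 kb and 1024 kb.

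Along the gene, the peaks present in SKO and those absent from it alternated. The first 3 WT peaks, with summits 29.1 kb to 127 kb from the low-coordinate boundary, were missing from both knockouts. A weak peak opened the row (118169056 to 118169274, WT −log10 q 1.98, 10 fragments). The next (118237077 to 118237365) had a −log10 q of 10.4 and 19 fragments. The peak after it (118267047 to 118267402) was stronger, at −log10 q 17.4 and 28 fragments (95% Poisson interval 18.6 to 40.5).

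Next came 2 peaks that all lists held, inside the non-coding RNA gene Gm51555, which overlaps Cdh13 there. The interval at 118274687 to 118275074 had 82 fragments in SKO, 102 in TKO and 89 in WT. Its neighbour at 118287510 to 118287831 had 13 fragments in SKO, 23 in TKO and 28 in WT. Between them TKO had its gained peak (118281737 to 118281953, TKO fold 5.17, −log10 q 6.77, 15 fragments), which SKO lacked too. A WT peak at 118292261 to 118292462 (−log10 q 5.15) was absent from both knockouts, and the interval at 118334912 to 118335581, which has 2 WT summits, was present in all lists. The stretch under Gm51555 thus held kept, lost and gained peaks.

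Farther in, 2 neighbouring peaks were missing from SKO alone. That at 118390065 to 118390291 had 14 fragments in TKO and 16 in WT. That at 118411273 to 118411509 was the strongest Cdh13 peak lost in SKO, with a −log10 q of 31.8 in TKO and 23.6 in WT, a fold of 12.9 in TKO and 9.25 in WT, and 37 fragments in TKO and 35 in WT (24.4 to 48.7). TKO thus kept it at a like pileup while SKO had no peak over it. Kept peaks followed at 304 kb and 442 kb, that at 304 kb (118443334 to 118443809) with 23 fragments in SKO, 60 in TKO and 58 in WT.

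The peak at 118618836 to 118619111, 479 kb into the gene, was absent from both knockouts. It had the highest WT −log10 q of the peaks missing from both, 18.8, with 39 fragments (27.7 to 53.3). From 546 kb to 711 kb all 4 WT peaks were kept. They include the strongest of the gene (118850356 to 118850776), with 105 fragments in SKO, 139 in TKO and 153 in WT, and −log10 q 89.2 in SKO, 137 in TKO and 169 in WT. The second by −log10 q (118685885 to 118686295) had 55 fragments in SKO, 82 in TKO and 110 in WT. Both lie in the strongest of 5 equal bins of the WT list by −log10 q, where 2 of 14215 peaks were lost in SKO and 0 in TKO.

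From 753 kb to 808 kb kept and lost peaks again lay side by side. The peak at 118893033 to 118893310 (−log10 q 7.24) was in WT alone. A pair with summits 1.18 kb apart was split, since all lists held 118898033 to 118898407 (20 fragments in SKO, 33 in TKO and 35 in WT) and SKO lacked 118899200 to 118899610 (12 in TKO and 14 in WT). SKO also lacked 118925565 to 118925809, which had 8 fragments in TKO and 19 in WT, and 118947669 to 118947907, with 15 in TKO and 17 in WT. Between the split pair and these, the peak at 118916538 to 118916920 was held by all lists, with 34 fragments in SKO, 49 in TKO and 33 in WT.

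From 814 kb to 931 kb, 8 of 11 WT peaks were kept. The kept ones include 118979824 to 118980212, with 49 fragments in SKO, 64 in TKO and 93 in WT. The peak at 119013712 to 119014024 was missing from SKO alone (17 in TKO, 25 in WT). At 119051761 to 119052166 WT alone had a peak, of −log10 q 18.3 and 31 fragments (21.1 to 44.0). A second split pair had summits 1.09 kb apart. Of it, 119069258 to 119069572 was kept (20 fragments in SKO, 36 in TKO and 37 in WT) and 119070398 to 119070704 was missing from SKO (17 in TKO, 29 in WT, WT −log10 q 19.7).

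The lost peak of that pair opened the longest run of WT peaks missing from SKO, 4 in a row over 93.5 kb. After it came 119128335 to 119128631, in WT alone, and then 119136126 to 119136373 and 119163899 to 119164240, both held by TKO with 15 and 17 fragments. The longest kept run followed directly and reached the last peak of the gene: 11 peaks over 116 kb. Its last 7 peaks lay within 15.9 kb (119295533 to 119311844), 13.3 kb from the high-coordinate boundary. Their WT −log10 q ran from 26.3 to 108. The outermost of them (119311354 to 119311844) had 56 fragments in SKO, 99 in TKO and 119 in WT, and the first (119295533 to 119295908) 55 in SKO, 124 in TKO and 137 in WT.

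With the gene divided into 3 stretches of equal length, the low-coordinate stretch had lost 6 of 10 WT peaks in SKO and 4 in TKO. The middle stretch had lost 4 of 11 in SKO and 2 in TKO, and the high-coordinate stretch 7 of 26 in SKO and 2 in TKO. Over the whole list 21.9% of WT peaks were lost in SKO and 19.0% in TKO. The stretches also differed in strength, with a median WT −log10 q of 15.5, 19.9 and 37.7 in that order. Below the median of the WT list were 7 of 10, 6 of 11 and 12 of 26 of their peaks. Of all WT peaks below that median, 43.3% were lost in SKO and 37.6% in TKO. This division was chosen after the values were seen, and the part of strength in it was not tested.

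Peaks lost at Cdh13 were the weaker ones. The 17 missing from SKO had 10 to 39 fragments in WT (median 19) and the 30 kept had 28 to 153 (median 60), so the ranges overlapped. Above the median of the WT list Cdh13 had 22 peaks, none of them lost in either knockout. Over the whole list, 182 of 35537 peaks above the median (0.512%) were lost in SKO and 127 (0.357%) in TKO. Below the median, Cdh13 had lost 17 of 25 in SKO (68%, 48.4% to 82.8%), where the whole list lost 43.3%. In TKO it had lost 8 of 25 there (32%, 17.2% to 51.6%), where the whole list lost 37.6%. In the weakest of the 5 bins of the WT list all 8 Cdh13 peaks were lost in SKO and 4 in TKO, beside 69.5% of all WT peaks there in SKO and 62.8% in TKO. In the next bin 7 of 9 were lost in SKO and 4 in TKO, beside 34.0% of all in SKO and 27.7% in TKO. In the middle bin 2 of 10 were lost in SKO and 0 in TKO, beside 5.82% of all in SKO and 4.26% in TKO.

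**Figure D2:**
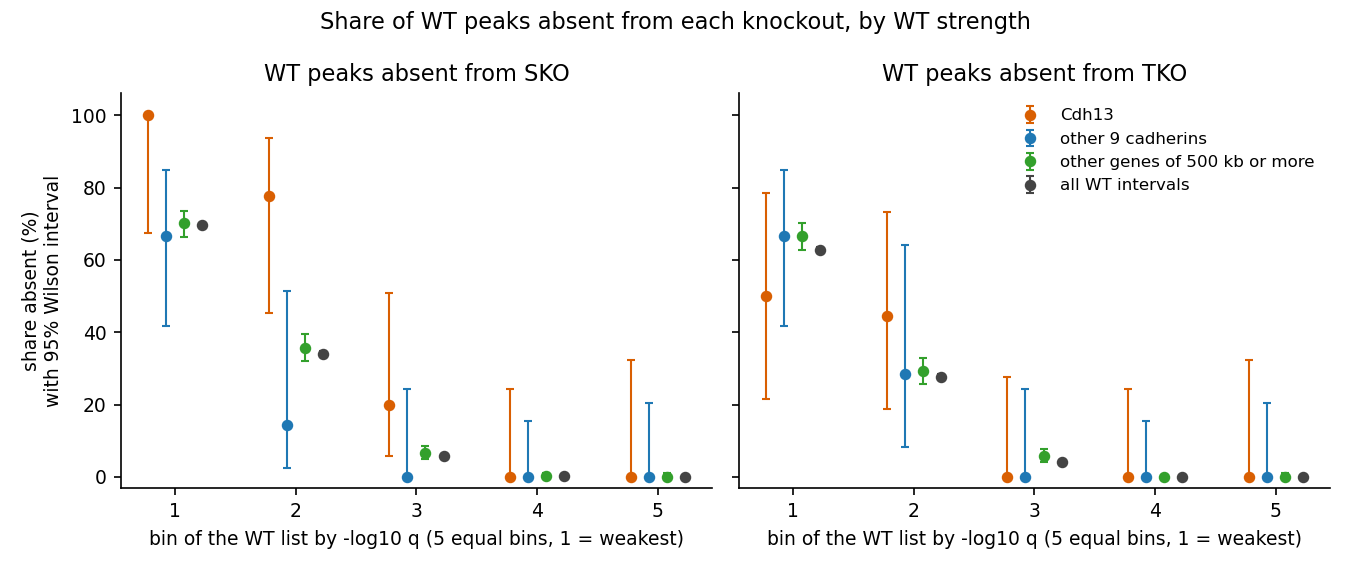
Share of WT peaks absent from SKO (left) and TKO (right) in 5 equal bins of the WT list by −log10 q, the weakest first, for Cdh13, the other 9 cadherin genes, other genes of at least 500 kb and all WT intervals; bars are 95% Wilson intervals for counting error. In the second bin the Cdh13 share was 77.8% in SKO (45.3% to 93.7%), where all WT intervals had 34.0%. In TKO it was 44.4% (18.9% to 73.3%), where they had 27.7%. Cdh13 was chosen by its number of WT peaks lost in SKO, so these shares are a description and not a test.

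Kept and lost peaks of Cdh13 overlapped between WT −log10 q 13.6 and 23.6. To set the pileups beside the depth of each knockout list, those in WT were multiplied by the median ratio over all shared peaks (0.734 for SKO, 0.895 for TKO). For the 17 Cdh13 peaks lost in SKO the result ran from 7.34 to 28.6 fragments. For 16 of them it was at or above the smallest pileup that the lowest −log10 p in the SKO list allows. The same held for 91.7% of all WT peaks lost in SKO. The background assumed at the Cdh13 peaks was that of WT times 0.779, the ratio of genome-wide backgrounds, and at least the genome-wide value of SKO. The factor 0.734 came from peaks that SKO kept, and over shared Cdh13 peaks alone the median ratio was 0.614. Counting error was left out. These counts therefore cannot tell the part of depth in the losses, which was not tested further.

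On median, shared Cdh13 peaks stood below the list in SKO and above it in TKO. The ratio of pileups, SKO over WT, had a median of 0.614 over the 30 shared Cdh13 peaks (0.397 to 1.05), and 19 of 30 were under the median of all shared peaks, 0.734 (quartiles 0.609 and 0.875). For TKO over WT the median over 39 shared peaks was 0.934 (0.406 to 1.48), and 16 of 39 were under the 0.895 of all shared peaks (quartiles 0.764 and 1.05). At Cdh13 peaks above the WT list median, where list membership hardly selects, the medians were 0.614 in SKO and 0.939 in TKO over 22 peaks, and over all such peaks of the series 0.721 and 0.870. The local background at shared Cdh13 peaks had a median ratio of 0.713 in SKO and 1.12 in TKO, over all shared peaks 0.739 and 1.02. Peaks of 1 gene share their chromatin and libraries and are not replicates, so these medians are descriptions. Most summits moved little: by a median of 13 bp and at most 42 bp in SKO relative to WT, and by a median of 12 bp and at most 135 bp in TKO. The 135 bp were at 118925565 to 118925809, where the TKO peak was weak (−log10 q 1.76) and its summit fell outside the WT interval. With partner summits required within 100 bp, Cdh13 had lost 9 of 47 WT peaks in TKO and gained 2 of 40.

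**Figure D3:**
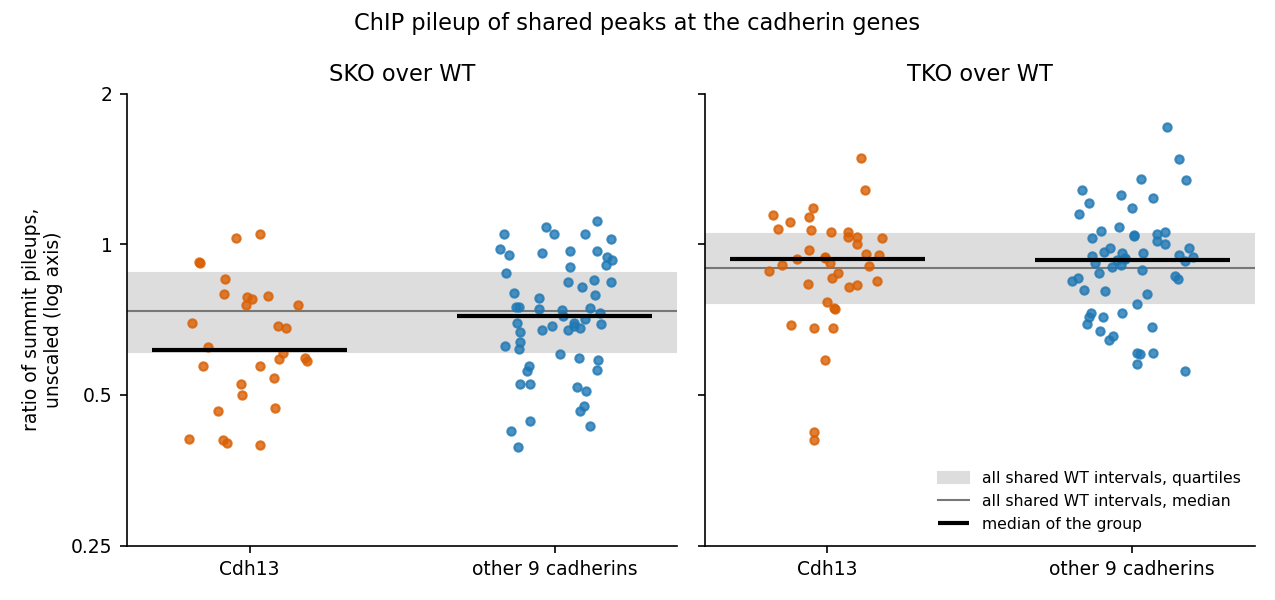
Ratio of summit pileups, SKO over WT (left) and TKO over WT (right), on a log axis, without scaling for depth, for each shared WT peak of Cdh13 and of the other 9 cadherin genes; black bars are group medians, the grey line and band the median and quartiles of all shared WT peaks. The Cdh13 median is 0.614 in SKO, close to the lower quartile of 0.609, and 0.934 in TKO, above the median of 0.895; those of the other cadherins are 0.719 and 0.931.

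Between the knockouts, Cdh13 in SKO lacked 10 of its 40 TKO peaks (25%, 14.2% to 40.2%), beside 14.5% of all TKO peaks, and held none that TKO lacked (0 of 30, beside 10.4% of all SKO peaks). The 10 are the 9 WT peaks that TKO kept and the peak gained in TKO. Every SKO peak at Cdh13 therefore lay over a TKO peak and over a WT peak. At the other 9 genes SKO lacked 6 of 62 TKO peaks (9.68%, 4.51% to 19.5%) and held 6 of 62 that TKO lacked (9.68%).

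The other 9 cadherin genes together had 62 peaks in SKO, 62 in TKO and 70 in WT. They had lost 11 of 70 WT peaks in SKO (15.7%, 9.01% to 26.0%) and 12 of 70 in TKO (17.1%, 10.1% to 27.6%), beside 21.9% of all WT peaks in SKO and 19.0% in TKO. With lists of equal length these shares were 3.45% in SKO, beside 12.0% of all, and 5.17% in TKO, beside 10.8%. The gains were 3 of 62 SKO peaks (4.84%), beside 6.59% of all SKO peaks, and 4 of 62 TKO peaks (6.45%), beside 7.49% of all TKO peaks, both near the share over the lists. Their WT peaks were stronger than those of Cdh13, with 44 of 70 above the list median and 22 of 47 at Cdh13. Below the median they had lost 11 of 26 in SKO (42.3%), beside 43.3% of all WT peaks there, and 12 of 26 in TKO (46.2%, 28.8% to 64.5%), beside 37.6%. No interval was counted for more than 1 gene.

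**Figure D4:**
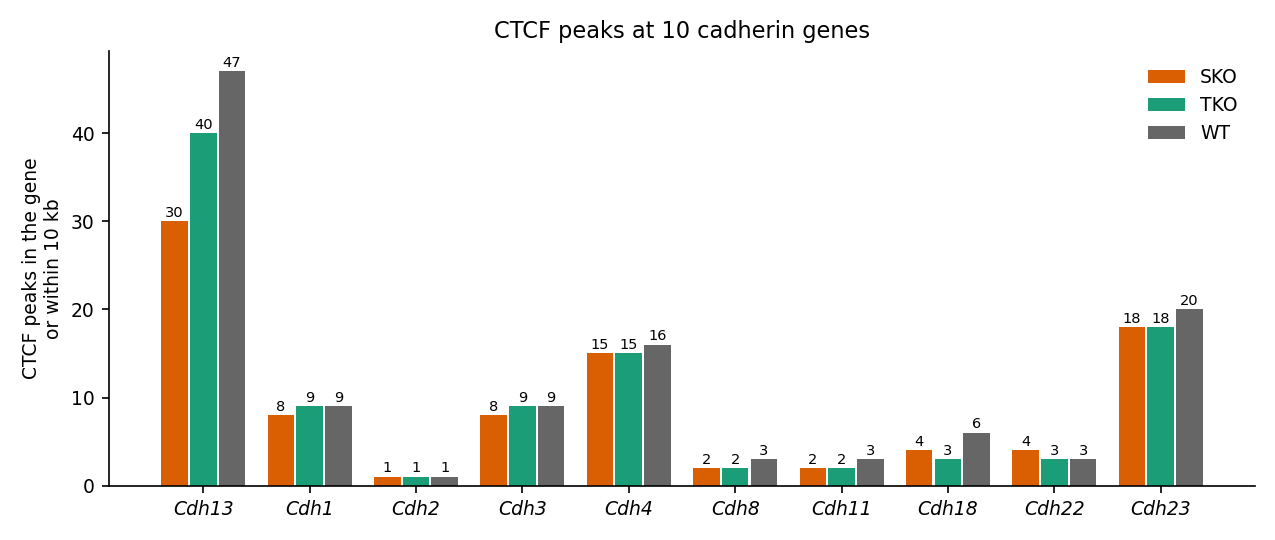
Number of CTCF peak intervals in each cadherin gene or within 10 kb of it in the SKO, TKO and WT lists. Cdh13 has 30 in SKO, 40 in TKO and 47 in WT, while each other gene differs by at most 3 peaks between lists.

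Among the classical cadherins, Cdh1 encodes E-cadherin, which joins epithelial cells and also embryonic stem cells. It lies at chromosome 8, 106603350 to 106670247, and had 8 peaks in SKO, 9 in TKO and 9 in WT. A peak on its low-coordinate boundary (106603142 to 106603508, WT summit 76 bp outside) had 27 fragments in TKO and 20 in WT and was missing from SKO. SKO instead listed a peak 194 bp farther in (106603703 to 106603970, 22 fragments, fold 4.66), with its summit 571 bp from the WT summit. So the overlap rule counts 1 loss and 1 gain within the same short stretch of the Cdh1 boundary. A weak peak (106657794 to 106658059, −log10 q 3.41) was in WT alone, and TKO gained 1 (106618550 to 106618788, fold 3.15). The Cdh1 peak with the highest WT −log10 q (106647396 to 106647788) had 135 fragments in SKO, 127 in TKO and 143 in WT.

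Cdh3 encodes P-cadherin, first known from placenta, and lies close to Cdh1 on chromosome 8 (106510852 to 106556911). With 13.03 peaks per 100 kb of gene in each list it was the most densely bound of the 10 genes. It had 8 peaks in SKO, 9 in TKO and 9 in WT, and 8 of the 9 WT peaks were above the list median. The highest by WT −log10 q (106530567 to 106531028) had 125 fragments in SKO, 177 in TKO and 187 in WT. Only the weakest WT peak (106557285 to 106557499, −log10 q 6.89) was lost, from both knockouts. TKO gained a peak with its summit 0.23 kb outside the low-coordinate boundary (106510466 to 106510750, fold 4.71).

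Cdh2, the N-cadherin gene of neural and mesenchymal cells, lies on chromosome 18 (16588877 to 16809246). Although 220 kb long, it had no peak inside it in any list and 1 peak 6.46 kb outside (16582274 to 16582615). That peak had 19 fragments in SKO, 42 in TKO and 40 in WT, a ratio to WT of 0.475 in SKO and 1.05 in TKO.

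Cdh4, which encodes R-cadherin, known from retina, lies on chromosome 2 (179442423 to 179899377). It had 15 peaks in SKO, 15 in TKO and 16 in WT. Both WT peaks it lost, of −log10 q 3.21 (179865050 to 179865457) and 7.64 (179889865 to 179890095), were missing from both knockouts. TKO gained 1 (179663636 to 179663935, fold 6.52, 24 fragments), and SKO gained another (179584558 to 179584764, fold 3.75, 9 fragments). The highest by WT −log10 q (179877507 to 179877971) had 52 fragments in SKO, 55 in TKO and 77 in WT.

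Cdh8, Cdh11, Cdh18 and Cdh22 belong to the type II cadherins, most of which are known from brain and mesenchyme. Cdh8 (chromosome 8, 99024471 to 99417666) had 2 peaks in SKO, 2 in TKO and 3 in WT. In each list only 1 of them lay inside the gene, which is 393 kb long. Its strongest peak (99419706 to 99420099, inside the overlapping non-coding gene A330008L17Rik) had 65 fragments in SKO, 53 in TKO and 62 in WT. A weak neighbour 4.09 kb outside Cdh8 (99421623 to 99421888, −log10 q 6.94) was in WT alone.

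Cdh11, the cadherin of osteoblasts and fibroblasts (chromosome 8, 102632095 to 102785493), had 2 peaks in SKO, 2 in TKO and 3 in WT. Its strongest peak (102780896 to 102781332) had 76 fragments in SKO, 103 in TKO and 107 in WT. The peak it lost in both knockouts (102678097 to 102678361) had a −log10 q of 3.74 and 12 fragments.

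Cdh18 lies on chromosome 15 (22548898 to 23477491) and is 929 kb long, close in length to Cdh13, yet it had 4 peaks in SKO, 3 in TKO and 6 in WT. Inside the gene this is 0.323 peaks per 100 kb in SKO, 0.215 in TKO and 0.538 in WT, where Cdh13 had 2.53, 3.38 and 3.97. Cdh18 was the gene with most peaks lost in TKO but not in SKO: 22577687 to 22577907 (10 fragments in SKO, 11 in WT) and 23405421 to 23405653 (15 in SKO, 20 in WT). One more, 23105074 to 23105310, was missing from SKO alone (13 fragments in TKO and 13 in WT), and 22981803 to 22982005 from both. At Cdh13 no WT peak was lost in TKO alone. The strongest Cdh18 peak, 9.01 kb outside the gene (23486361 to 23486722), had 40 fragments in SKO, 38 in TKO and 50 in WT.

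Cdh22 (chromosome 2, 165111501 to 165234924) lost no WT peak. It had 4 peaks in SKO, 3 in TKO and 3 in WT, and the SKO peak without a partner was at the edge of the list (165201930 to 165202159, −log10 q 1.31, 9 fragments). Among the 4 cadherin genes here with a promoter in the RefSeq table of GRCm38.p6, Cdh8, Cdh18, Cdh22 and Cdh23, it was the only one with a peak over that window, which runs from 250 bases before to 50 after a transcript start. The peak (165234625 to 165235217) had 21 fragments in SKO, 24 in TKO and 25 in WT, and its WT summit lay 312 bp from the start. In every list the summit was outside the window, and the SKO interval (165234956 to 165235334) overlapped only its edge. The bound site therefore need not lie in the sequence shown. The promoters of Cdh22 and Cdh8 are shown because both are rich in CG dinucleotides, the substrate of the deleted enzymes. Only the window of Cdh22 overlapped a CTCF peak interval. Capitals mark each CG, and both are read 5′ to 3′ on the minus strand.
Cdh22, chr2:165234688-165234987, minus strand: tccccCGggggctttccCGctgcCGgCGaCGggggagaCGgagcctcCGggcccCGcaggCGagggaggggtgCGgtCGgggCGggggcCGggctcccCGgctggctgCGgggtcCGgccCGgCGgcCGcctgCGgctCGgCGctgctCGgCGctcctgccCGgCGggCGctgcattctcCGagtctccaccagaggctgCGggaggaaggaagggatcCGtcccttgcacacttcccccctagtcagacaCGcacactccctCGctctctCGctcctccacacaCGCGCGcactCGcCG
Cdh8, chr8:99416422-99416721, minus strand: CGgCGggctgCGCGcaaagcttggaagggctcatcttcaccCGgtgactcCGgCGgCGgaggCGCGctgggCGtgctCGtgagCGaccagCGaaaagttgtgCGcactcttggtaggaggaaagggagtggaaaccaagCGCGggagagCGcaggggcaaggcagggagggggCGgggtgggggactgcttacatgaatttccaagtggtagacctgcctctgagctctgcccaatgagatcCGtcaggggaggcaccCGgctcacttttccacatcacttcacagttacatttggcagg
The Cdh22 window held 38 CG and was 76.3% G or C, and that of Cdh8 held 21 CG at 62.3%. Those of Cdh18 and Cdh23 held 12 and 5. Over all 32851 windows of the table the median was 7, and 4.95% of them held at least as many as Cdh22 and 24.8% at least as many as Cdh8.

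Cdh23, an unusually large cadherin of the tip links of hair cells in the inner ear (chromosome 10, 60302748 to 60696513), had 18 peaks in SKO, 18 in TKO and 20 in WT. With 4.83 WT peaks per 100 kb inside the gene it was bound at a density like that of Cdh13, and 15 of its 20 WT peaks were above the list median, against 22 of 47 at Cdh13. Cdh23 lost 2 WT peaks in SKO and 3 in TKO, of −log10 q 7.43 to 10.1. Those at 60352243 to 60352514, inside the overlapping gene Vsir, an inhibitor of T cells, and at 60447877 to 60448179 were missing from both, and 60587255 to 60587560 from TKO alone (10 fragments in SKO, 19 in WT). TKO gained 60552961 to 60553189 (fold 4.14). The strongest peak (60305233 to 60305675) had 136 fragments in SKO, 126 in TKO and 146 in WT. A kept peak with its summit 671 bp from the promoter start (60696943 to 60697390) had a −log10 q of 57.6 in SKO, 116 in TKO and 103 in WT.

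**Figure D5:**
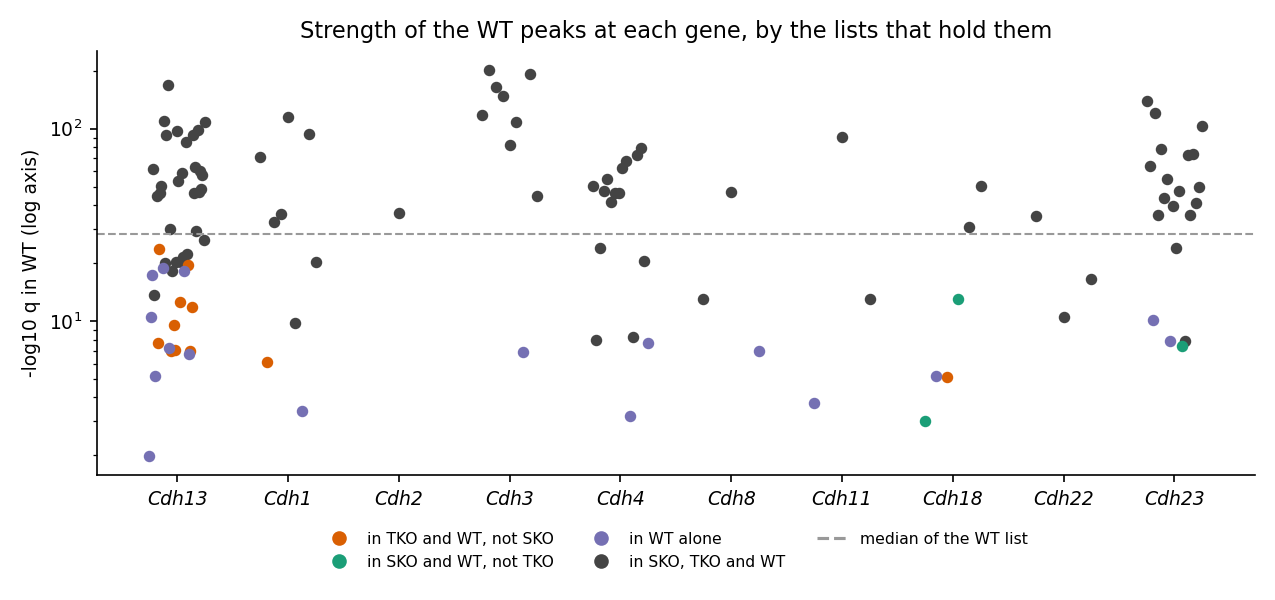
The authors' −log10 q in WT, on a log axis, of every WT peak at each cadherin gene, in order of position within a gene and coloured by the lists that hold it; the dashed line is the median of the WT list, 28.3. Every lost peak lies below the line. Peaks lost in SKO reach 23.6 at Cdh13 and 10.1 at the other genes, and peaks lost in TKO 18.8 and 12.9.

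Other genes of the family and its partners were counted beside these. A list of 13 further Cdh genes had 32 peaks in SKO, 32 in TKO and 39 in WT, and lost 12 of 39 WT peaks in SKO (30.8%), beside 21.9% of all WT peaks, and 8 in TKO (20.5%), beside 19.0%. Of these, Cdh12, a type II cadherin gene of 1150 kb, had 4 peaks in SKO, 4 in TKO and 7 in WT. It lost 4 of 7 WT peaks in SKO (57.1%) and 3 in TKO (42.9%), and gained 1 in SKO. Its WT peaks were weak, with a median −log10 q of 5.15. The 7 catenin genes had 65 peaks in SKO, 66 in TKO and 69 in WT. They lost 12 of 69 in SKO (17.4%), beside 21.9% of all WT peaks, and 8 in TKO (11.6%), beside 19.0%. The counting error of the shares in these added lists was not computed, so their distance from the whole list is description only. Ctnna3, an alpha catenin gene that is 1574 kb long, lost 2 of 24 in SKO and 1 in TKO. Adipoq, which encodes the ligand adiponectin, lost 1 of 3 in both.

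Cdh18 and Cdh12, also long, held far fewer peaks than Cdh13. Over the 226 other protein-coding genes of at least 500 kb, the median density inside the gene was 1.32 WT peaks per 100 kb (quartiles 0.869 and 2.07), and Cdh13 ranked 11 of 227. Overlapping entries are counted singly here, and Gm37013, Gm38666 and Gm38667, which share 1 locus, hold the first 3 ranks. With the longest of overlapping genes alone, a choice made after the values were seen, Cdh13 ranked 9 of 224. These genes lost 24.5% of their 2893 WT peaks in SKO and 22.1% in TKO. Among the 40 with at least 20 WT peaks, the share lost in SKO ran from 5.68% to 43.5% with a median of 21.7%, and 3 of them reached or passed the 36.2% of Cdh13. In TKO it ran from 4.17% to 35%, and 17 of the 40 reached its 17.0%. The entries of that locus set the lowest share in SKO, and counting it once left 38 genes with medians of 22.0% in SKO and 14.9% in TKO, and 3 and 17 genes at or above Cdh13. The 3 genes nearest to Cdh13 in WT density were Thsd4, which lost 3 of 23 in SKO and 3 in TKO, the polarity gene Pard3, which lost 3 of 20 and 2, and the ankyrin gene Ank2, which lost 5 of 26 and 2.

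The 10 kb margin added no peak at Cdh13, where every interval lay inside the gene, and 14 of the 70 WT peaks at the other 9 genes, among them the only peak of Cdh2, 4 of 9 at Cdh1 and 3 of 9 at Cdh3. At Cdh13 the nearest outside was 20.9 kb away in SKO, 21.0 kb in TKO and 20.9 kb in WT (WT 119345680 to 119346063, fold 11.6). The farthest interval that the rule took was that of Cdh18 at 9.01 kb. The nearest it left out were a weak WT peak 11.0 kb from Cdh1 (106592268 to 106592466, fold 2.88) and SKO and TKO peaks 11.3 kb from it (fold 14.6 in SKO and 9.86 in TKO).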

How the data were processed

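The 3 peak lists analysed cover 9 ChIP samples, pooled by genotype, and the authors called them against input, per the labels' file naming. Tools listed in the submitters' processing notes are Bowtie2 2.3.4, MACS2 2.1.2, SAMtools 1.9, FastQC 0.11.7, deepTools 3.5.0 and bedtools 2.25.0, with build mm10; commands and filters: not given in the sources used here. The authors' deposited peaks each have a fold (a ratio), a −log10 p, a −log10 q, a summit offset and an integer score that was not used.

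Rows with equal intervals were joined (strongest summit kept) and matched at an overlap of at least 1 bp. Fold and −log10 p were solved for pileup and background, which gave whole pileups (within 0.01) for at least 99.968% of intervals per list. The solution and the matching were tested on simulated data. Read totals were not used. All 10 genes matched the RefSeq table of GRCm38.p6, which gives no strand. Promoters came from RefSeq. Genome sequence under the peaks was not used here. Shares carry 95% Wilson intervals, pileups exact Poisson intervals. A count of 0 was taken to allow 3. Python 3.11.15 with pandas 2.3.3, numpy 2.4.6 and scipy 1.17.1 was used. The genes and peaks named, the gene lists and the alternatives were chosen with earlier results of these data known: all 10 genes, every changed interval, the strongest intervals and 3 long genes of like density.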

Additional observations from a re-analysis of the deposited data

How the results depend on the processing

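The 12 shares of lost and gained peaks (Cdh13 and the other 9 genes, in 3 comparisons) were recomputed under 7 alternatives. Of the 84 values, 80 stayed inside the 95% interval of the reported share. That count includes the Cdh13 values without the 10 kb margin, which could not change because every Cdh13 interval lay inside the gene. With lists of equal length (59372 each), Cdh13 had lost 23.1% of WT peaks in SKO (9 of 39), beside 12.0% of all WT peaks. This was 1 of the 4 values outside, as it lay below the reported interval of 24.0% to 50.5%. In TKO Cdh13 had then lost 12.8%, beside 10.8%. The other 9 genes then had lost 3.45% in SKO and 5.17% in TKO, beside the same shares of all WT peaks, and both values were below their reported intervals. At a −log10 q of at least 5 they gained 3.57% in SKO against TKO, the last value outside its interval, beside 7.04% of all SKO peaks. At that limit Cdh13 had lost 34.8% in SKO against WT, beside 17.3% of all WT peaks. Both alternatives leave out the weakest peaks by construction. No paired analysis was possible because replicates were pooled before peak calling, and for the same reason no replicate could be left out. The genome-wide background in SKO was 0.779 times that of WT, and the part of depth in the losses was not tested.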
